A study of Mus musculus with 6 samples.

Results

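The integrins, cadherins, protocadherins and immunoglobulin-type adhesion molecules are the surface proteins with which a cell holds on to its matrix and to its neighbours. Their genes were taken from the gene symbols of the authors' deposited table by fixed name patterns: integrin alpha and beta chains, numbered cadherins, all protocadherins, the Icam, Ncam, Cadm and Pvrl families, and Vcam1, L1cam, Alcam, Mcam and Cd44. The patterns use no expression values, but they were chosen with earlier results of these data known. These patterns found 94 of the 16472 genes of the table, namely 12 integrin alpha chains, 7 integrin beta chains, 9 cadherins, 53 protocadherins, 3 nectins (listed under their older symbol Pvrl), 9 immunoglobulin-type molecules and the hyaluronan receptor Cd44. Genes that fit the patterns but are not among the 94, such as Itga4, had no line under that symbol in the authors' deposited table.

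The study exposed HT22 cells, an immortalised mouse hippocampal line used as a neuron model, to AA147 or to the solvent DMSO as vehicle for 16 h. AA147 is a small molecule known to activate ATF6, a sensor of misfolded proteins in the endoplasmic reticulum, and NRF2, a regulator of the oxidative stress response, and the labels write its concentration as 10 mM, in which a lost micro sign is possible. There were 3 libraries per group, 6 in all, from 1 unmodified cell line, and the labels do not say whether replicates were separate cultures, so the p-values measure only the spread between these libraries. The authors' deposited table holds 1 line per gene and no value per library: a mean normalized count over the libraries, a log2 fold change with its standard error (SE), a p-value and a Benjamini-Hochberg adjusted p.

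The header does not name the numerator of the fold change. It is read here as AA147 over vehicle, and every direction below depends on that reading. The NRF2 targets Nqo1 and Gclm, chosen like Hspa5 after their values were seen, had log2 changes of 0.93 ± 0.0674 and 0.63 ± 0.0815 in the authors' deposited table, whereas the ATF6 target Hspa5 had -0.80 ± 0.0615. On the opposite reading each sign would turn, and every level, share, ratio or sum given for vehicle and AA147 would belong to the other group. A gene is called changed when its adjusted p in the authors' deposited table was under 0.05. Group levels are those implied by the mean and the fold change with equal group sizes, in normalized counts, and 95% intervals were computed from the fold change and its SE under a normal distribution. Log2 changes below are log2 fold changes ± SE.

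Integrins are pairs of 1 alpha and 1 beta chain that span the membrane and link matrix proteins to actin through talin, kindlins and vinculin, and the pair sets which ligand is bound. Classical cadherins bind the same cadherin on the next cell in a calcium-dependent way and anchor to actin through catenins, and protocadherins, many of them encoded in large gene clusters, give neurons a surface identity. Nectins start junctions that cadherins then strengthen, and molecules with immunoglobulin domains such as VCAM1 and NCAM1 bind integrins or their own kind.

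Of the 94 genes, 68 had an adjusted p in the authors' deposited table and 13 of these were called, 5 higher and 8 lower with AA147. That is 19.1% of the 68, beside a background of 20.2% of the 13597 genes with an adjusted p (9.05% positive and 11.1% negative). Over all 68, the share called was thus near the background. Of the 37 with a mean of at least 100, a level at which the fold changes are more precise, 11 were called, or 29.7% beside 23.8% of all such genes. The median log2 fold change of the 68 was -0.041 beside 0.0092 for all genes with an adjusted p. Negative values made up 41 of the 68, beside 6571 of the 13597. The remaining 26 genes had no adjusted p and means of at most 8.38 in the authors' deposited table. Their SEs ran from 0.776 to 3.05 and their smallest unadjusted p was 0.0769.

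The called genes fell into a few large and several small changes. Cdh26 was lower by 4.70-fold, Vcam1 by 1.97-fold and Itgb7 higher by 2.40-fold, and these 3 were abundant. Itga11 and Cdh3 were lower by 9.16-fold and 3.39-fold at means of 9.88 and 14.6 normalized counts in the authors' deposited table, close to the lowest level at which genes had an adjusted p. The other 8 called genes changed by 1.13-fold to 1.57-fold. Of all 13, 7 had an absolute log2 fold change under 0.5.

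**Figure D1:**
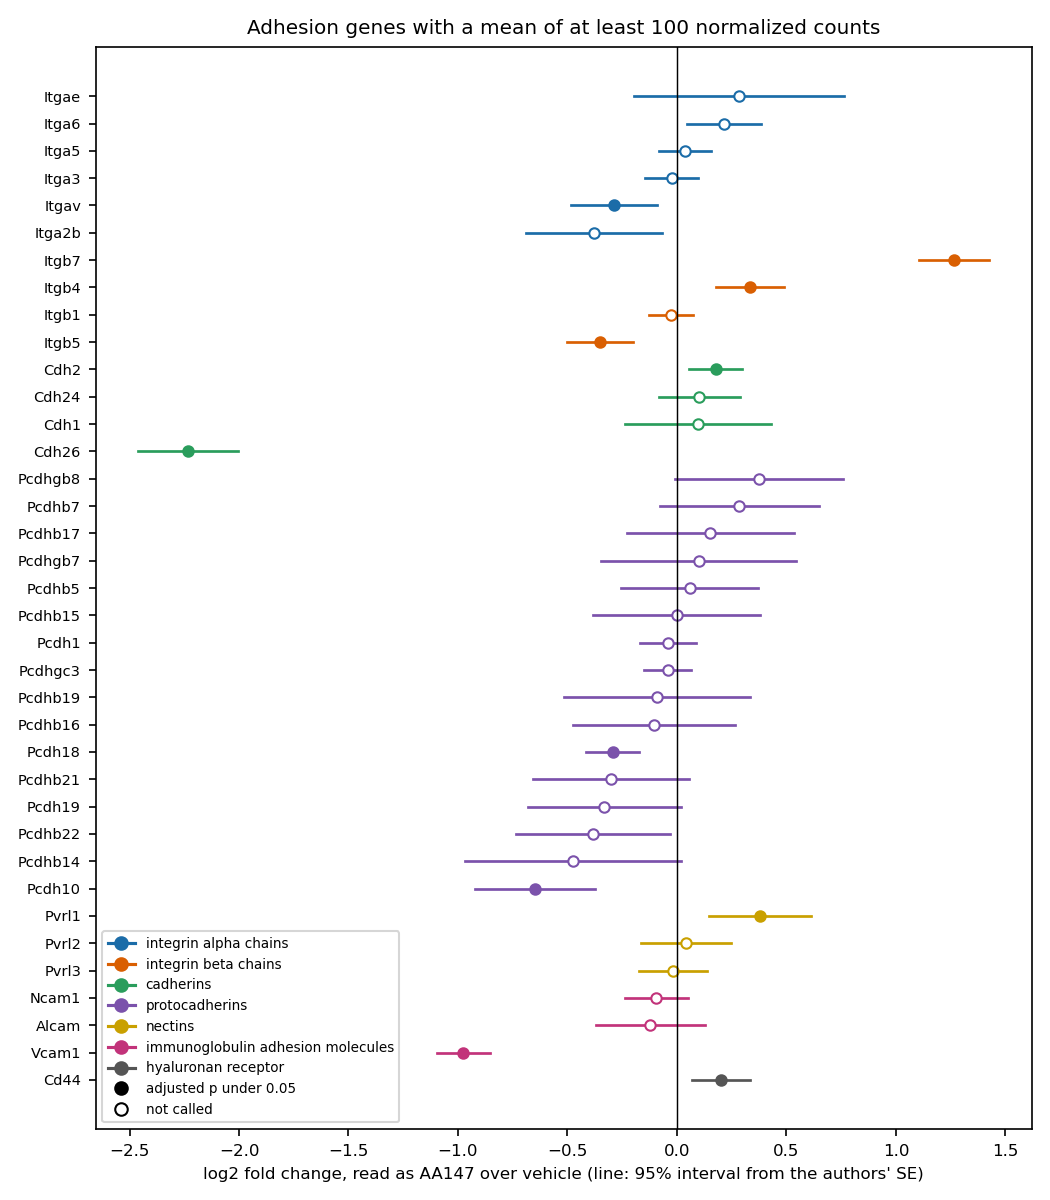
Log2 fold change (x axis, read as AA147 over vehicle) of the 37 adhesion genes with a mean of at least 100 normalized counts, ordered within each family (colour); lines are 95% intervals from the authors' SE, filled points are called and open points are not. Cdh26 at -2.23 and Vcam1 at -0.98 lie farthest left and Itgb7 at 1.27 farthest right, and most protocadherin intervals cross 0.

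**Figure D2:**
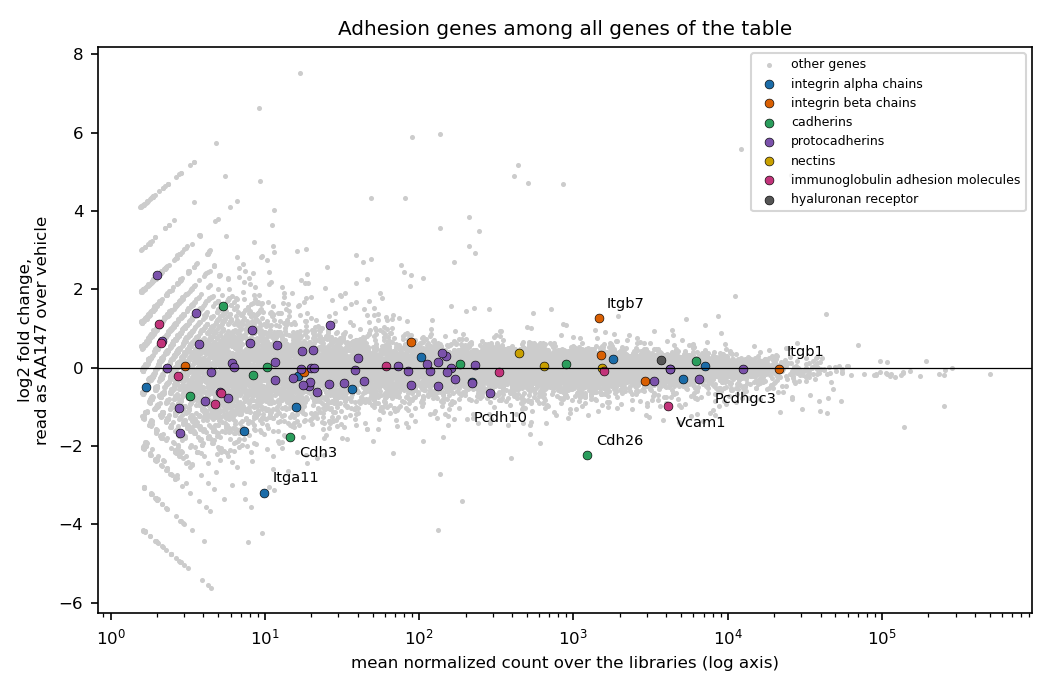
Mean normalized count (x axis, log scale) against log2 fold change (y axis) for all 16472 genes in grey and the 94 adhesion genes coloured by family. Cdh26, Itgb7 and Vcam1 stand outside the band of genes of similar mean, and the large values of rarely counted members lie among equally wide values of other genes.

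The promoters of 4 called genes are shown because these had the largest changes among the called genes that have a mean of at least 100 and an entry in the RefSeq promoter table (GRCm38.p6, 250 bases before to 50 after the start). Entries were found for 30 of the 94 genes, 8 of the 13 called genes among them, and Vcam1, Itgb4, Pvrl1, Cdh2 and Cdh3 were not matched. The sequences run 5′ to 3′ on the strand of the gene, and capitals mark GC boxes, the GGGCGG element bound by SP1 family factors, on either strand.
Cdh26, chr2:178430265-178430564, plus strand: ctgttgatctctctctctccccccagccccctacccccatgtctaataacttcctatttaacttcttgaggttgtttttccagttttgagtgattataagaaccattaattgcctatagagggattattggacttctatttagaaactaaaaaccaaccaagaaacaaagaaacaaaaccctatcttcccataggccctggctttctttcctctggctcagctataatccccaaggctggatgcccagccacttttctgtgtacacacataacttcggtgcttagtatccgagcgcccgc
Itgb7, chr15:102231886-102232185, minus strand: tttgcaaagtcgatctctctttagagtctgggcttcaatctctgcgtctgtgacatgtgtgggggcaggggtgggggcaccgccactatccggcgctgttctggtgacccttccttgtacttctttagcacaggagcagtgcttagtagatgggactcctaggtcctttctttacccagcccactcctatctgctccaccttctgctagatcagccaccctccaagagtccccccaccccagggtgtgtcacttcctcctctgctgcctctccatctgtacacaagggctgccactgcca
Pcdh10, chr3:45378148-45378447, plus strand: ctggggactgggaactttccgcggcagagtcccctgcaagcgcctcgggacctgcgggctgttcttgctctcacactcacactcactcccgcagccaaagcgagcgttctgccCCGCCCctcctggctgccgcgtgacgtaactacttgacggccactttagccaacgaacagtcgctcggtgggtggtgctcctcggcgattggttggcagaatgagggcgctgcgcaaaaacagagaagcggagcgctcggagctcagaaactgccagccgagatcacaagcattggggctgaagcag
Itgb5, chr16:33829415-33829714, plus strand: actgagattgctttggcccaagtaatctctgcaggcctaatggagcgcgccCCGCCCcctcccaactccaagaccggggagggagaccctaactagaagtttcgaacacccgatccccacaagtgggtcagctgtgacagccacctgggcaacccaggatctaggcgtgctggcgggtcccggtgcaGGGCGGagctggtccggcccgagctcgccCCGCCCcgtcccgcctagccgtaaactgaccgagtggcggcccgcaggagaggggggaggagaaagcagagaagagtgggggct

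The Itgb5 window held 3 GC boxes and the Pcdh10 window 1, and those of Cdh26 and Itgb7 held 0. Also searched on both strands were the antioxidant response element TGACNNNGC bound by NRF2, the ER stress response element bound by ATF6 (CCAAT and CCACG with 9 bases between), the AP-1 element TGANTCA, the TEAD element GGAATG and the E-box CACGTG. None of these letters occurred in the 4 windows shown. A match to TGACNNNGC was present in 12.4% of all 32851 RefSeq promoters of this length and in 2 of the 32 windows of the adhesion genes, those of Itgb1 and Pvrl2, neither of which was called. GC boxes were present in 35.7% of all promoters and in 23 of the 32 windows. The ER stress element was present in 0.119% of all promoters, AP-1 in 7.81%, TEAD in 14.7% and the E-box in 7.15%, and in 0, 1, 2 and 0 of the 32 windows. The GC content was 44.0% for Cdh26, 56.3% for Itgb7, 62.3% for Pcdh10 and 65.7% for Itgb5.

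Among the integrin beta chains, Itgb7 was higher, Itgb4 slightly higher and Itgb5 lower with AA147, while no change was called for Itgb1. Itgb7 encodes the beta 7 chain, known for homing and retention of lymphocytes in gut tissue as a partner of alpha 4 and alpha E. Its mean was 1457 in the authors' deposited table, which with its fold change implies 856 normalized counts with vehicle and 2059 with AA147. The log2 change of Itgb7 in the authors' deposited table was 1.27 ± 0.0825 (adjusted p = 1.76e-50), with a 95% interval from 1.10 to 1.43. The alpha E gene Itgae had a mean of 103 and a log2 change of 0.28 ± 0.245 (adjusted p = 0.480) in the authors' deposited table, an interval from -0.20 to 0.76. Per kb of canonical transcript, the level of Itgb7 was 29.0 times that of Itgae.

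Itgb4, whose product pairs with alpha 6 in hemidesmosomes that bind laminin, had a mean of 1514 and implied levels of 1339 with vehicle and 1688 with AA147. Its log2 change in the authors' deposited table was 0.33 ± 0.0797 (adjusted p = 0.000375). The exons of Itgb4 overlap those of Galk1 on the other strand over 14.9% of their bases. Since the libraries were not stranded, reads there cannot be told apart, and Galk1, a neighbour picked out later, had the opposite sign in the authors' deposited table, at -0.19 ± 0.0696 (adjusted p = 0.0377). The partner Itga6 had a mean of 1817 and a log2 change of 0.21 ± 0.0858 in the authors' deposited table that narrowly missed the threshold, at an adjusted p of 0.0581.

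Itgb5 and Itgav encode the chains of the vitronectin receptor alpha v beta 5, and both were lower with AA147. Itgb5 had a mean of 2914, and its implied levels were 3266 with vehicle and 2563 with AA147. Its log2 change was -0.35 ± 0.0767 (adjusted p = 8.66e-05) in the authors' deposited table. Itgav, at a mean of 5170 and implied levels of 5685 and 4654, had in the authors' deposited table a log2 change of -0.29 ± 0.10 (adjusted p = 0.0236). The SE of Itgav was 1.55 times the median of the 200 genes nearest in mean, so its change is less precisely known than its abundance alone would give. Among other known alpha v partners, Itgb1 had a mean of 21418, Itgb3 one of 3.04 and Itgb8 one of 17.8 in the authors' deposited table.

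Itgb1, the beta chain shared by most matrix receptors, was the most abundant adhesion gene with a mean of 21418 in the authors' deposited table. Its log2 change was -0.03 ± 0.0518, with an interval from -0.13 to 0.07. The 2 most abundant alpha chains per length were likewise not called. Itga5, the alpha chain of the fibronectin receptor, had a mean of 7108 and a log2 change of 0.04 ± 0.0612, and Itga3, which serves laminin binding, a mean of 4216 and a log2 change of -0.02 ± 0.0615 in the authors' deposited table. Their intervals ran from -0.08 to 0.16 and from -0.15 to 0.10.

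Levels per length gave the order of the chains. Among beta chains, Itgb1 had 4274 normalized counts per kb, Itgb5 875, Itgb7 543, Itgb4 243 and Itgb2 30.0, and among alpha chains Itga5 had 1622, Itga3 849, Itgav 699, Itga6 412 and Itga2b 36.0. Itgb1 made up 71.6% of the summed beta chain level. At face value of the fold changes, the share of Itgb7 was 5.45% of the beta chain level with vehicle and 12.6% with AA147, and that of Itgb5 16.8% and 12.7%, so the ratio of Itgb7 to Itgb5 went from 0.325 to 0.997. On the opposite reading Itgb7 would hold 12.6% with vehicle and 5.45% with AA147, and Itgb5 12.7% and 16.8%. A mean without values per library gives no spread, so neighbours in this order were not tested against each other.

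**Figure D3:**
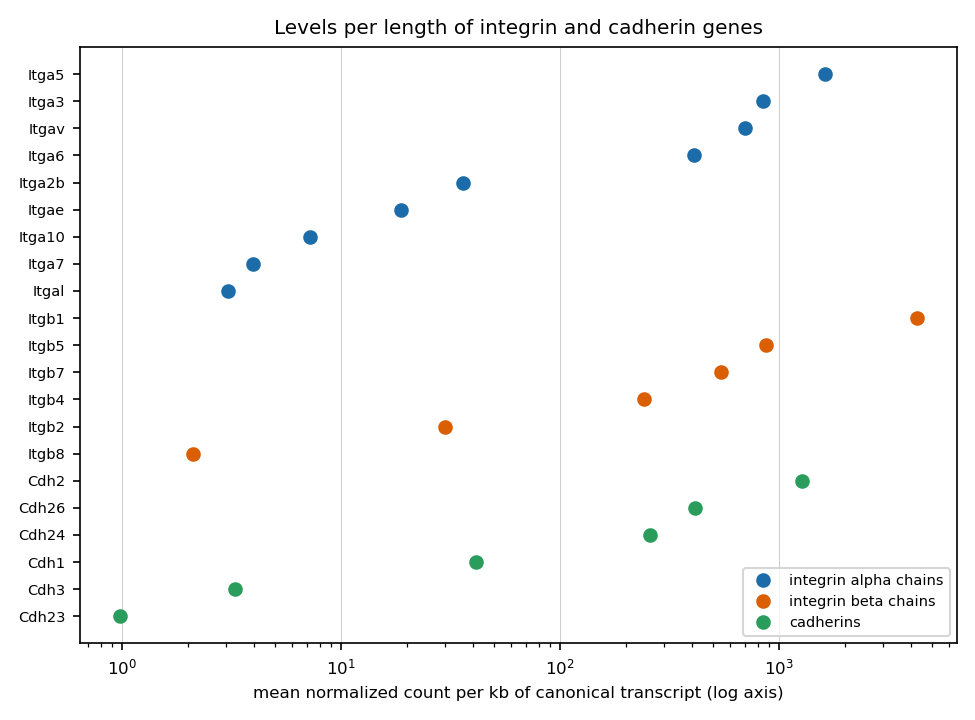
Mean normalized count per kb of canonical transcript (x axis, log scale) for integrin alpha chains, integrin beta chains and cadherins with a mean of at least 10, 1 point per gene. Itgb1 at 4274 and Itga5 at 1622 lead their families, and Cdh2 at 1275 leads the cadherins.

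The remaining integrin genes were scarce. Itga11, which encodes a collagen receptor chain of fibroblasts, was called lower with a log2 change of -3.20 ± 0.918 (adjusted p = 0.00449) in the authors' deposited table. Its implied levels were 17.8 normalized counts with vehicle and 1.95 with AA147, and its interval ran from -5.00 to -1.40. Another collagen receptor chain, Itga1, had a mean of 7.32 and a log2 change of -1.62 ± 0.917 with no adjusted p in the authors' deposited table. Itgb2, the beta chain of leukocyte integrins, had a mean of 89.2 and a log2 change of 0.66 ± 0.263 (adjusted p = 0.0572) in the authors' deposited table, and its partner Itgal a mean of 15.9 and a log2 change of -1.01 ± 0.615 (adjusted p = 0.265). Itga2b, known from platelets, had a mean of 222 and a log2 change of -0.38 ± 0.158 (adjusted p = 0.0738) in the authors' deposited table. Itga7, Itga10, Itgam, Itgb3 and Itgb8 had means from 1.71 to 36.6 and were not called. In all, 5 of the 16 integrin genes with an adjusted p were called (2 higher and 3 lower), beside 20.2% of all genes, and 4 of the 8 with a mean of at least 1000, beside 28.4% of all such genes.

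Cadherins held the largest change of an abundant adhesion gene. Cdh26, an atypical cadherin known from inflamed epithelium, had a mean of 1232, and its implied levels were 2032 normalized counts with vehicle and 433 with AA147. The log2 change of Cdh26 in the authors' deposited table was -2.23 ± 0.117 (adjusted p = 1.16e-78), an interval from -2.46 to -2.003. Cdh2, the neural cadherin typical of neurons and mesenchymal cells, was called slightly higher in the authors' deposited table at 0.18 ± 0.0616 (adjusted p = 0.0240), with implied levels of 5890 and 6662. At face value, Cdh2 exceeded Cdh26 per kb by 1.75 times with vehicle and by 9.29 times with AA147, or the reverse on the opposite reading.

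Cdh3, placental cadherin, was called lower in the authors' deposited table at -1.76 ± 0.683 (adjusted p = 0.0495), with implied levels of 22.6 and 6.68. This call lay at the threshold and was lost when the adjustment covered all 16472 genes. Cdh1, the epithelial cadherin, had a mean of 183 and a log2 change of 0.10 ± 0.170 (adjusted p = 0.763) in the authors' deposited table, and Cdh24 a mean of 900 and a log2 change of 0.10 ± 0.0951 (adjusted p = 0.512). Cdh5, the endothelial cadherin, lay at 1.57 ± 1.17 with a mean of 5.32 in the authors' deposited table and no adjusted p. Cdh11, Cdh17 and Cdh23 had means from 3.25 to 10.3 and were not called.

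Vcam1 led the immunoglobulin-type molecules. VCAM1 is a ligand of alpha 4 integrins on leukocytes and is known as a target of inflammatory signalling in endothelium. The gene had a mean of 4097 in the authors' deposited table, and implied levels of 5431 with vehicle and 2763 with AA147. Its log2 change was -0.98 ± 0.0626 (adjusted p = 4.29e-52) in the authors' deposited table, an interval from -1.10 to -0.85. Ncam1, a neural adhesion molecule that binds its own kind, had a mean of 1569 and a log2 change of -0.09 ± 0.0736 (adjusted p = 0.416) in the authors' deposited table. Its interval ran from -0.24 to 0.05, apart from that of Vcam1. Alcam, at a mean of 329, had a log2 change of -0.12 ± 0.128 (adjusted p = 0.580) and Icam5, at 60.7, one of 0.04 ± 0.294 (adjusted p = 0.951) in the authors' deposited table. Icam1, Icam4, Cadm4, L1cam and Mcam had means from 2.08 to 5.22 and no adjusted p in the authors' deposited table.

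**Figure D4:**
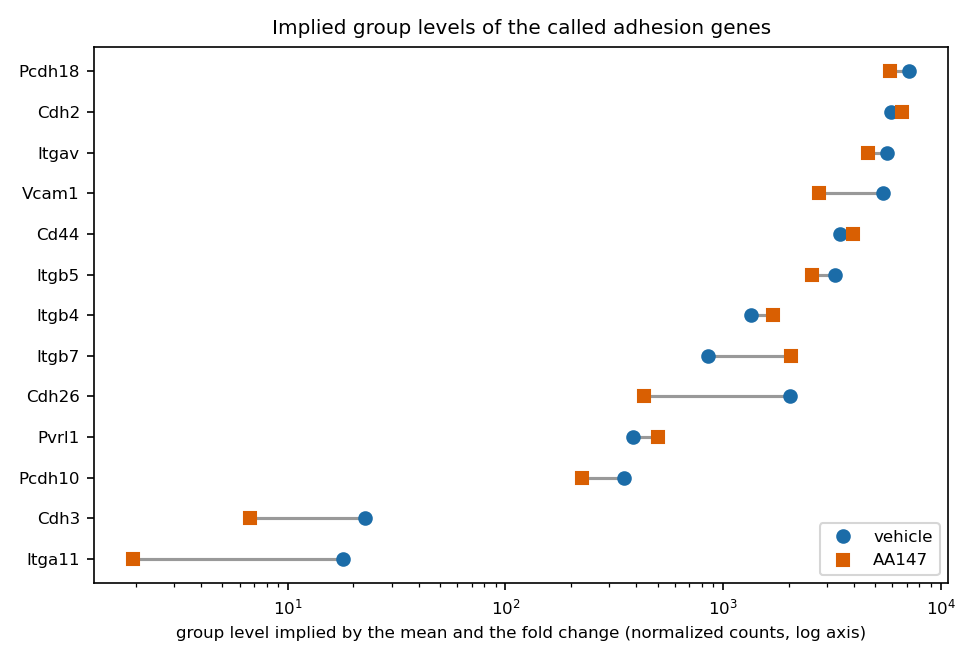
Group levels of the 13 called adhesion genes in normalized counts (x axis, log scale), computed from the mean and the fold change of each gene, with circles for vehicle and squares for AA147. The gap is widest for Itga11, from 17.8 to 1.95, followed by Cdh26, from 2032 to 433, and narrowest for Cdh2, from 5890 to 6662.

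Among the nectins, Pvrl1, which encodes nectin-1, was called higher in the authors' deposited table at 0.38 ± 0.118 (adjusted p = 0.00978), from an implied 386 to 502 normalized counts. Pvrl2 and Pvrl3 had means of 648 and 1529 and log2 changes of 0.04 ± 0.105 and -0.02 ± 0.0796 in the authors' deposited table, and neither was called. The hyaluronan receptor Cd44, at a mean of 3689, was called higher in the authors' deposited table at 0.20 ± 0.0680 (adjusted p = 0.02002). This small change was no longer called after a trend on transcript length, GC content and expression was subtracted, at a log2 change of 0.16 and an adjusted p of 0.0689.

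Protocadherins were called in 2 of 38 cases (5.26% beside 20.2% of all genes), both lower and both outside the gene clusters. Of the 38, 22 had a mean under 100, a level at which 7.12% of all genes were called, and both calls fell among the other 16 (12.5% beside 23.8% of all genes with a mean of at least 100). Pcdh10 had a mean of 288 and implied levels of 351 with vehicle and 224 with AA147, and its log2 change was -0.65 ± 0.141 (adjusted p = 7.19e-05) in the authors' deposited table. Pcdh18, far more abundant at 6504 with implied levels of 7163 and 5845, had a log2 change of -0.29 ± 0.0621 (adjusted p = 4.29e-05) in the authors' deposited table. Pcdh19, also outside the clusters, had a similar fold change of -0.33 at a mean of 3333 in the authors' deposited table. Its SE of 0.178 was 2.61 times the median of the 200 genes nearest in mean, and the gene was not called (adjusted p 0.190). Pcdh1, outside the clusters as well and at a mean of 4201, had a log2 change of only -0.04 ± 0.0650 (adjusted p = 0.746) in the authors' deposited table. Pcdh15 and Pcdh17, likewise outside the clusters, had means of 4.47 and 11.6 in the authors' deposited table and were not called. Their log2 changes were -0.11 ± 1.00 and 0.15 ± 0.714.

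The clustered protocadherins gave 0 calls among 33 genes with an adjusted p by the authors' DESeq2 test, beside 20.2% of all genes. Of the 33, 12 had a mean of at least 100, where 23.8% of all genes were called. The others lay under 100, where 7.12% of all genes were called. Among the 33, 2 had an unadjusted p under 0.05. In the authors' deposited table these were Pcdhga11 at 1.08 ± 0.427 (adjusted p = 0.0545) and Pcdhb22 at -0.38 ± 0.179 (adjusted p = 0.119). The median SE of the 33 was 0.370, so changes of the size seen for Pcdh18 could not be resolved in most of them. In the beta cluster, 9 of 21 genes had a mean of at least 100, with fold changes from -0.47 to 0.29 and SEs from 0.159 to 0.251, and 6 of the 9 were negative. The 5 alpha cluster genes had means from 2.15 to 8.04 and no adjusted p. Among all uncalled genes the largest absolute fold changes were 2.35 for Pcdhb13 and -1.66 for Pcdhga10 in the authors' deposited table, both at a mean under 3, followed by Itga1 and Cdh5 (above) and by Pcdhgb1 at 1.39 with an SE of 1.29.

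In the gamma cluster, Pcdhgc3 stood alone with a mean of 12646, which was 95.6% of the summed means of the 21 gamma genes, while the other 20 had means from 2.31 to 141 in the authors' deposited table. Its log2 change was -0.04 ± 0.0554 (adjusted p = 0.662) in the authors' deposited table, an interval from -0.15 to 0.07. Gamma isoforms share their last exons. In the GENCODE annotation, 39.5% of the exonic bases of Pcdhgc3 and a median of 45.6% over the 21 gamma genes lay in exons of other genes, against 53.5% for the alpha genes and a median of 0% for the beta genes. How reads in shared exons were assigned is not given in the sources used here, so single gamma and alpha values are uncertain, as are those of the closely related beta genes.

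**Figure D5:**
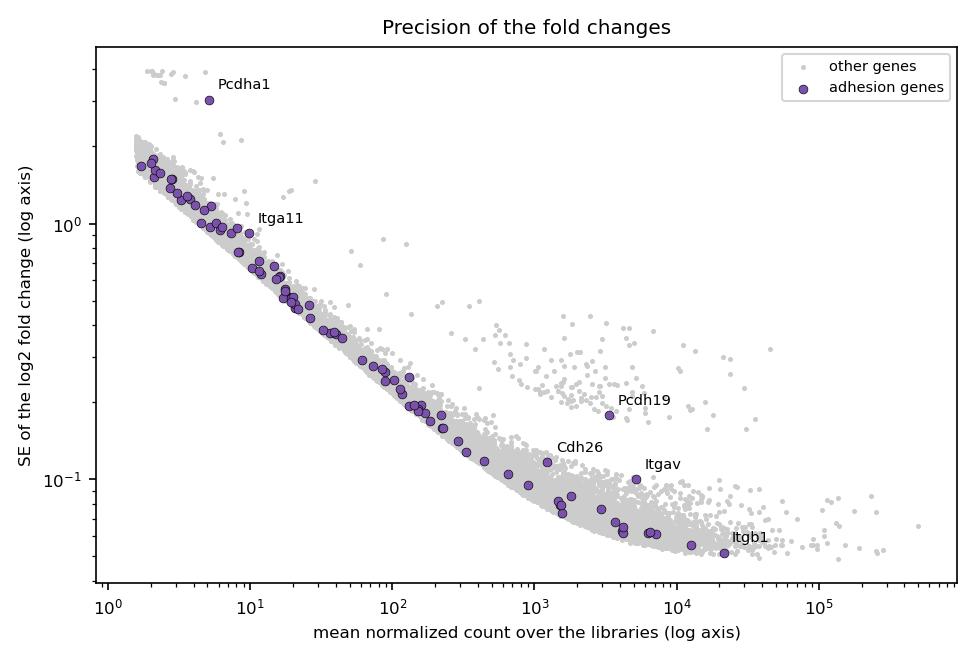
Mean normalized count (x axis, log scale) against the SE of the log2 fold change (y axis, log scale) for all genes in grey and the adhesion genes in purple. Most adhesion genes follow the band in which the SE falls with abundance, and Pcdha1 at 3.05 (mean 5.14), Pcdh19 at 0.178 and Itgav at 0.10 lie above it.

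Partners of these receptors were read from lists of known genes, which were chosen with earlier results of these data known. Of the 36 integrin activators and focal adhesion proteins in the table, 35 had an adjusted p, and 4 were called higher and 6 lower (28.6% beside 20.2% of all genes), with a median of 0.0022. At a mean of at least 100, calls made up 31.3% of 32 genes, beside 23.8% of all such genes. Of these 32, 29 had a mean of at least 1000, where 28.4% of all genes were called, so the share called was near that of genes of similar abundance. Parvb, the beta-parvin that links integrin-linked kinase to actin, at 0.67 ± 0.0798 and the filamin-binding Fblim1 at 0.63 ± 0.135 led the positive calls in the authors' deposited table, ahead of the actin-binding Lasp1 at 0.31. Dab2 at -0.33, an endocytic adaptor of integrins, Sharpin at -0.30, an integrin inhibitor, and Rsu1 at -0.29, of the integrin-linked kinase complex, were the lowest called in the authors' deposited table. Catenins and junction linkers gave 2 positive and 0 negative calls among 16 genes (12.5% beside 20.2% of all genes), led by Jup (plakoglobin) at 0.62 ± 0.0818 in the authors' deposited table. Of the 16, 13 had a mean of at least 1000, where 28.4% of all genes were called. The catenin genes Ctnnb1 at -0.04 ± 0.0559 and Ctnna1 at -0.10 ± 0.0543, chosen after their values were seen, were not called in the authors' deposited table.

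Matrix ligands of integrins, a list likewise chosen with earlier results of these data known, were mostly called. Of 22 with an adjusted p, 3 were higher and 11 lower (63.6% beside 20.2% of all genes), with a median of -0.19. All 14 calls fell among the 19 with a mean of at least 1000 (73.7% beside 28.4% of all such genes). Nid1, which joins laminin to collagen IV, was highest at 1.37 ± 0.0701, ahead of Cyr61 at 0.58 and Mfge8, a ligand of alpha v integrins, at 0.21 in the authors' deposited table. Col1a1 at -1.52, Spp1 (osteopontin, another alpha v ligand) at -1.35 and Col3a1 at -1.11 had the most negative values in the authors' deposited table. Among shedding enzymes and their inhibitors, 4 of 16 were called (25.0% beside 20.2% of all genes) and all 4 were lower, including the metalloproteinase inhibitors Timp3 at -0.81, Timp1 at -0.50 and Timp2 at -0.35 in the authors' deposited table. A mean of at least 1000, where 28.4% of all genes were called, was reached by 11 of the 16.

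The label of HT22 as neurons was set against marker genes. Of 14 neuron markers, 5 were in the table, and Tubb3, Syn1 and Dlg4 had means of 1199, 562 and 1653 while Stmn2 and Slc17a7 had means of 6.24 and 3.93 in the authors' deposited table. The other 9, Map2, Rbfox3, Syp, Snap25, Nefl, Nefm, Gap43, Grin1 and Dcx, had no line in the authors' deposited table. Of 10 fibroblast and mesenchymal markers, 9 were in the table with means from 181 to 254004. Of these 9, 6 were called lower with AA147 and 0 higher (66.7% beside 20.2% of all genes). A mean of at least 1000, where 28.4% of all genes were called, was reached by 8 of the 9. Vim, Fn1 and Thy1 were not called, with log2 changes of -0.08, -0.11 and -0.03 in the authors' deposited table. The summed level of the 9 mesenchymal markers, 4 of them also in the ligand list, was 822103 with vehicle and 476819 with AA147 at face value. That of the neuron markers was 3313 and 3534. Most of the mesenchymal difference came from collagen genes, with vehicle and AA147 levels of 336475 and 171534 for Col1a2, 206337 and 72014 for Col1a1, and 54514 and 25276 for Col3a1. The uncalled Vim had 157068 and 148544, and the uncalled Fn1 56817 and 52595. On the opposite reading the mesenchymal sum would be 476819 with vehicle and 822103 with AA147. Endothelial, epithelial, glial and leukocyte markers in the table had means of at most 28.8. In bulk RNA, fewer cells of a type and less RNA per cell cannot be told apart, and the part of the mesenchymal markers in the lower Vcam1, Cdh26, Itga11, Itgb5, Itgav, Pcdh10 and Pcdh18 was not tested.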

How the data were processed

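The 6 libraries, 3 from AA147-treated and 3 from vehicle-treated HT22 cells, were made as non-stranded mRNA libraries per the labels' protocols. DESeq2 and the build mm9 are named in the submitters' processing notes; the aligner, counter, annotation and versions are not given in the sources used here. The authors deposited 1 line per gene: a mean normalized count, a signal scaled to the average library, a log2 fold change and its log2 SE, a score (the test statistic, equal to the fold change over its SE within 3.06e-07), a p-value, and its adjusted form. The latter equalled a Benjamini-Hochberg adjustment over 13597 genes; the other 2875, with means of at most 8.41, had none and were not called. Library depths are unknown, and the means add up to 30768012.

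The rule for members and the gene lists were chosen with earlier results of these data known. The text names each called member, each with a mean of at least 1000, the 5 largest uncalled values, and up to 3 called genes per direction of each partner list; markers are named from their list, other genes outside the rule are said to be chosen after their values were seen, and members outside the rule are given for completeness. Lists were described by counts and medians, with no list test. Lengths and GC content came from canonical transcripts of GENCODE M39 (GRCm39), matched for 94 of 94 members and 86.2% of all genes. The shares of exonic bases shared with other genes were computed from its exon coordinates, on a build other than that of the counts. Promoters are from RefSeq, GRCm38.p6, which differs from the build of the counts. The planned search of protein motifs was not run. A called gene of the junction linkers is not reported here. Alternatives were a threshold of 0.01, fold limits, other adjustments, a limit on the mean, centring, subtraction of a robust quadratic trend, and a rescaled statistic. The code was tested on simulated data. Python 3.11.15, pandas 2.3.3, SciPy 1.17.1, statsmodels 0.14.6 and matplotlib 3.10.9 were used.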

Additional observations from a re-analysis of the deposited data

How the results depend on the processing

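No paired analysis was possible because each gene has 1 line for the whole comparison, and refits and leaving out replicates were not run either. The count of 13 called members lay between 9 and 13 under 5 alternatives. It became 6 with a limit of 0.5 on the absolute log2 change and 4 with a limit of 1, 4 with a Bonferroni adjustment and 3 with the statistic divided by its robust SD of 2.03, each stricter by construction. Cdh26, Vcam1 and Itgb7 were the 3 that remained under the last. The count of 2741 over all genes was 1818 at an adjusted p under 0.01, 796 and 255 with the fold limits, 774 with Bonferroni and 347 with the rescaled statistic. As shares, 13.2% of members stood beside 13.4% of all genes at 0.01, and 8.82% beside 5.85% and 5.88% beside 1.875% with the fold limits. Bonferroni gave 5.88% beside 5.69%, and the rescaled statistic 4.41% beside 2.55%. Cd44, Cdh2, Itgav and Cdh3 were not called at 0.01. Over the same 37 abundant members, 11 were called before and 10 after subtracting the trend (27.0% after). Over all 10110 genes in the trend, the counts were 2411 and 2360 (23.3% after). The median of the alpha chains, -0.33 over 12 genes, was 0.0061 over the 6 with a mean of at least 100 and 0.049 with the trend subtracted, and that of the beta chains, 0.04 over 7 genes, was 0.15 and 0.17 over 4, since these leave out rarely counted genes. The other 17 medians moved by less than the members' median SE. Of 42 log2 changes of named members under centring or trend subtraction, 41 kept their status as called or not called. No called member changed sign. The uncalled Itga3, Pcdh1 and Pcdhgc3 turned from slightly negative to 0.012, 0.0019 and 0.011 with the trend subtracted. The order per length was kept with the longest transcript for all 17 genes compared. Library depths are unknown. Of the 57 members with a mean under 100, 31 had an adjusted p and 2 were called, beside 7.12% of all such genes.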
